A study of Mus musculus with 3 samples.

Results

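The Wnt ligands, their receptors, their secreted antagonists and a few transcriptional targets were followed in embryoid bodies of the mouse. These are clumps grown in suspension from embryonic stem cells, in which many cell types form. The set holds 40 genes, taken by gene symbol from the probes of the array: 18 ligands, 12 receptors and co-receptors, 7 antagonists and 3 targets and transcription factors. They are measured by 51 of the 39429 probes, which stand for 30397 gene names in all.

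Embryoid bodies labelled Dido3deltaCT+HADido3CT were set against embryoid bodies labelled as wild-type control. The first, called mutant+CT here, have a Dido3 protein without its C-terminal region and overexpress that same region as well. Both were grown for 10 days without LIF, the cytokine that holds stem cells undifferentiated. RNA of each of 3 biological replicates was hybridised against its counterpart on a 2-colour Agilent array, with mutant+CT in Cy3 on replicates 1 and 3 and in Cy5 on replicate 2. Truncation and overexpressed region occur only together in these samples, so their effects cannot be told apart, and the labels name neither the promoter of the construct nor the number of clones. The comparison asks which of these transcripts differ between the groups.

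Wnt proteins are secreted lipid-modified signals. On receiving cells they bind Frizzled receptors, encoded by the Fzd genes, and in the β-catenin branch also the co-receptors Lrp5 and Lrp6. β-catenin then escapes a destruction complex that contains Axin and activates genes together with TCF/LEF factors. Other Wnts act mainly without β-catenin and guide cell polarity and movement. Secreted antagonists of the Sfrp family, to which Frzb belongs, bind Wnts, whereas Dkk1 and Dkk2 bind the co-receptors. In the embryo the pathway acts in the primitive streak, the mesoderm, the dorsal neural tube and the forebrain.

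For 4 of the genes that carry the main patterns below, the first 30 of the 60 bases of a probe, as the scanner files list them, are shown so that the measured transcripts can be found. Coordinates are those of mm9 in the files, and the strand is that of the transcript. Whether a probe lies in coding sequence or in a UTR is not given, for want of an mm9 annotation in this work. Both probes of Lrp6 are shown because their ratios differ.
Lrp6, brighter probe A_55_P2118391, chr6:134400440-134400499, minus strand: caaaggaaacaggaaaagaaaggcatcact
Lrp6, dimmer probe A_55_P2041360, chr6:134404723-134404782, minus strand: atcgagcgcacgtcacgggagcctcctcaa
Frzb, probe A_51_P286748, chr2:80252582-80252641, minus strand: gtgcaccagggtgttatttaacagaggtat
Wnt8b, brighter probe A_55_P2140913, chr19:44588615-44588674, plus strand: gtggagacaactaacaacacacaagcatcc
Fzd1, probe A_52_P597634, chr5:4754003-4754062, minus strand: caaatgccgatacatacataggacctaaat
The 2 Lrp6 probes lie in the same RefSeq transcript by accession, the brighter one nearer to its 3' end.

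The share of spots well above background was 68.1% to 78.5% per array and dye, and 0 spots were saturated. Of the 40 genes, 30 had a probe that was well above background on all 3 arrays in at least 1 group and free of outlier marks. Of these, 28 passed in both groups, Wnt5a through mutant+CT alone and Wnt8b through wild type alone. The filter let Wnt5a and Wnt8b in through the group where each was brighter on average, so their place among the higher or lower genes is not independent of it. Over the other 28 genes, a count added after seeing the data, 3 were higher and 7 lower at an unadjusted p under 0.05 in limma, 5 were higher and 8 lower on every array, and the median ratio was -0.33. The counts below are over the 30 tested genes, not over all 40. The number of arrays limits the precision. Intensities below are normalized spot intensities in scanner units, given for replicates 1, 2 and 3 in that order. A ratio is log2 of mutant+CT over wild type, and a mean ratio is given with its SD over the 3 arrays. Each gene is read from its brightest probe unless another is named, and levels of different genes are not compared.

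In brief, the co-receptor Lrp6 and the antagonist Sfrp5 were higher in mutant+CT on every array, and the antagonist Frzb and the receptor Fzd3 were lower on every array by close to the same factor. The ligand Wnt8b and the antagonist Sfrp2 were much lower on replicates 1 and 3 and little different on replicate 2. Fzd1 and the genes Lef1 and Axin2 were higher on replicate 1 and lower on both other arrays. With limma and Benjamini-Hochberg adjustment over all 20389 genes, 0 of the 30 genes had an adjusted p under 0.05, as had 0% of all genes tested, and the lowest adjusted p was 0.0843, that of Lrp6. At an unadjusted p under 0.05, 3 of the 30 were higher and 8 lower, which is 10.0% and 26.7%, beside 9.04% and 6.7% of all genes tested. Over all kept probes 0 of 38 tested probes of these genes had an adjusted p under 0.05 in limma, beside 0.437% of the kept probes. In tissue aggregates such as these, fewer cells of a type and less RNA per cell cannot be told apart.

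By sign, 5 of the 30 genes were higher on every array, or 16.7%, beside 20.3% of all genes tested, and 9 were lower on every array, or 30.0%, beside 17.4%. The remaining 16 differed in sign between the arrays. By size, 1 gene was at least 2-fold higher on every array, or 3.33%, beside 1.9% of all genes tested, and 2 were at least 2-fold lower, or 6.67%, beside 0.991%. The count of 2 was 0 with median centring in place of loess, and 0 with the arrays scaled to the same spread. The median ratio of the 30 was -0.33, beside -0.003 for all genes tested, and on replicates 1, 2 and 3 it was -0.01, -0.01 and -0.80.

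**Figure D1:**
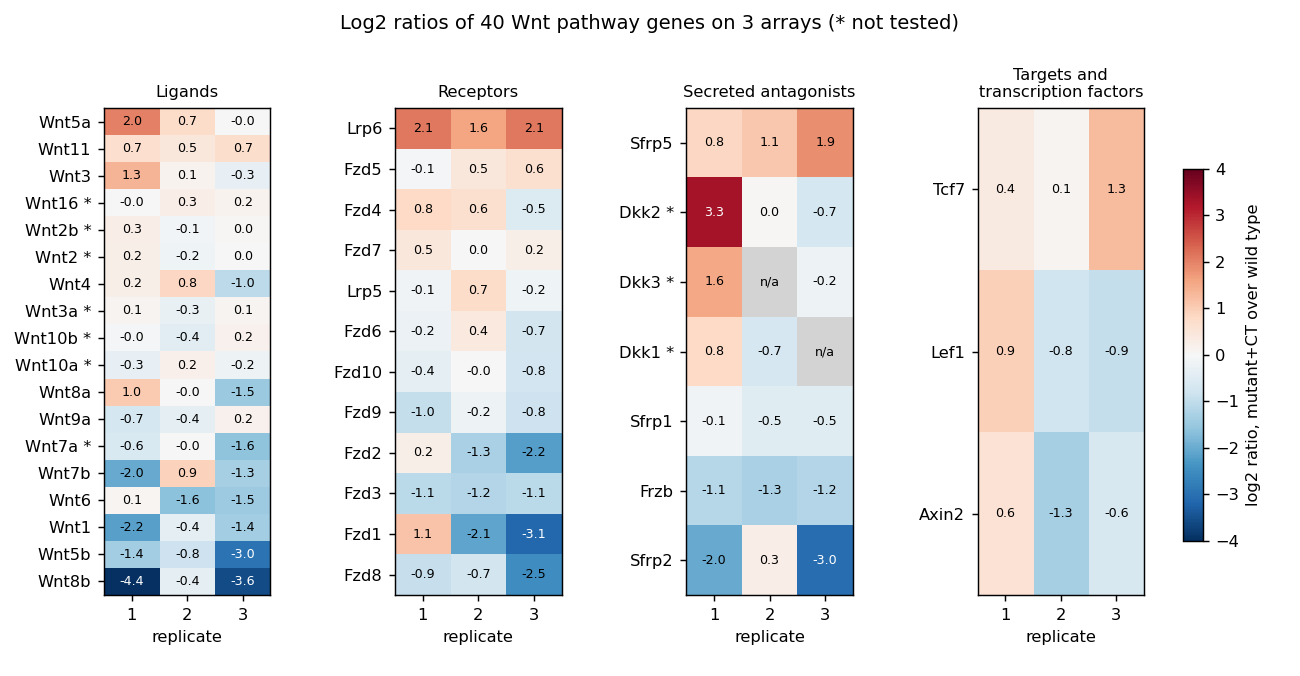
Log2 ratio of mutant+CT over wild type on each array (columns, replicates 1 to 3) for the brightest probe of 40 Wnt pathway genes (rows, by role, ordered by mean ratio); red is higher in mutant+CT, blue lower, and grey marks an outlier spot. Lrp6 and Sfrp5 are red and Frzb and Fzd3 blue on all 3 arrays, whereas Fzd1 and Lef1 are red on replicate 1 alone.

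Among ligands, Wnt11 was the 1 of 11 tested genes that was higher on every array, or 9.09%, beside 20.3% of all genes tested. Wnt11 acts mainly without β-catenin, in cell movement and heart and kidney formation. Its intensities were 1764, 1158 and 1299.8 in mutant+CT, against 1101, 842 and 795 in wild type. All mutant+CT values lay above the highest wild-type value, and the ratio was small and even, at 0.62 ± 0.14 (SD, n = 3; limma adjusted p = 0.268). Wnt5a, a relative that acts in the same branch, had 509.7, 161 and 100.4 in mutant+CT, against 126, 96.8 and 101 in wild type. The difference came from replicate 1, and the ratios were 2.01, 0.73 and -0.01.

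Wnt5b, a close paralog of Wnt5a, was lower on every array. It had 1527, 339.95 and 380.3 in mutant+CT, against 4030.05, 603 and 2957 in wild type. The groups overlapped, since replicate 1 of mutant+CT lay above replicate 2 of wild type, and the ratio was -1.73 ± 1.10 (SD, n = 3; limma adjusted p = 0.178).

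Wnt8b, a ligand of the dorsal forebrain and the developing hippocampus, was not well above background on every array in mutant+CT, but on 2 of 3. It had 87.5, 104 and 119 in mutant+CT, against 1896, 134 and 1413 in wild type. The 2 high values were those of wild type on replicates 1 and 3, while wild type on replicate 2 was close to the mutant+CT values. The ratios were -4.44, -0.36 and -3.57, with a mean of -2.79 ± 2.15 (SD, n = 3), which depends on values close to background in mutant+CT. The dimmer Wnt8b probe gave -2.67, -0.01 and -2.23, which is the same order of arrays. It too passed the filter through wild type alone, with 1 of 3 arrays well above background in mutant+CT, so its direction is not independent of the filter. Wnt1, a ligand of the midbrain-hindbrain boundary and dorsal neural tube, had 223, 363 and 262 in mutant+CT, against 1012, 479 and 694 in wild type. The groups did not overlap, and the ratio was -1.33 ± 0.89 (SD, n = 3; limma adjusted p = 0.206). Wnt7b, a ligand of forebrain neurons and of several epithelia, had ratios of -2.01, 0.93 and -1.34, so that only replicate 2 was higher in mutant+CT.

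Neural progenitor markers were by their median lower on every array, on replicate 2 as well, where Wnt8b differed little and Wnt7b was higher. The median ratios of the 5 markers Sox1, Pax6, Hes5, Fabp7 and Nes were -4.31, -1.66 and -4.17, and Nes was the exception on replicate 2, at 0.11. All 5 were well above background on all arrays in both groups. Their summed intensity was 2499, 1237 and 1600 in mutant+CT, against 17685, 2398 and 32685 in wild type. The wild-type sum was thus lowest on replicate 2, as were the wild-type intensities of Wnt8b, Wnt1 and Wnt7b. This was not particular to these ligands. It held for other genes of the set too, among them Wnt5b, Fzd1, Fzd2, Sfrp1 and Lef1, but not for Axin2, Fzd3 and Frzb. The part of neural cell content in the ratios of Wnt8b, Wnt1 and Wnt7b was not tested. Replicate 2 is also the only array with swapped dyes, so a dye effect cannot be told apart from a difference of that replicate.

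The other tested ligands had no common sign over the arrays. Wnt3, a ligand needed for the primitive streak, had ratios of 1.35, 0.13 and -0.31, and Wnt8a, which is active in the posterior embryo, had 1.04, -0.02 and -1.50. Wnt6 had 0.07, -1.65 and -1.45, Wnt4, known for kidney and ovary development, 0.23, 0.84 and -1.04, and Wnt9a -0.71, -0.35 and 0.18. For these 5 ligands the sign on replicate 1 and that on replicate 3 were opposite in each case.

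Of the 18 ligands, 7 were not tested because no probe was well above background on all arrays in either group. They include Wnt2, Wnt2b, Wnt3a, Wnt10a, Wnt10b and Wnt16, whose 7 probes had intensities of 59.4 to 183 in mutant+CT and 61.0 to 165 in wild type. Their ratios lay between -0.43 and 0.36, at a brightness where a difference may not show. Wnt7a, the other one, was well above background on 2 arrays in each group, and its ratios were -0.61, -0.03 and -1.61.

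Among receptors, Lrp6 stood out as the 1 gene of the set that was at least 2-fold higher on every array. Lrp6 is the co-receptor that is phosphorylated when a Wnt binds and then draws Axin to the membrane. The brighter probe had 1284, 1854 and 1714 in mutant+CT, against 300.1, 624 and 394 in wild type. The lowest mutant+CT value was above the highest wild-type value, and the ratio was 1.93 ± 0.31, or 3.81-fold (SD, n = 3; limma adjusted p = 0.0843). The dimmer probe had 642, 531 and 291 in mutant+CT, against 346, 259 and 265 in wild type. Here the groups overlapped, and the ratios were 0.89, 1.04 and 0.14, with a mean of 0.69 ± 0.48. The mean over both probes was 1.31 (limma adjusted p = 0.0963). Lrp6 passed limma in a separate-channel fit, which uses the intensities of both dyes in place of their ratio (adjusted p = 0.021). That fit called 333 genes higher and 139 lower over all genes tested. Over the alternative settings the adjusted p of Lrp6 ran from 0.021 to 0.225. Lrp5, the related co-receptor, had ratios of -0.13, 0.73 and -0.17.

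**Figure D2:**
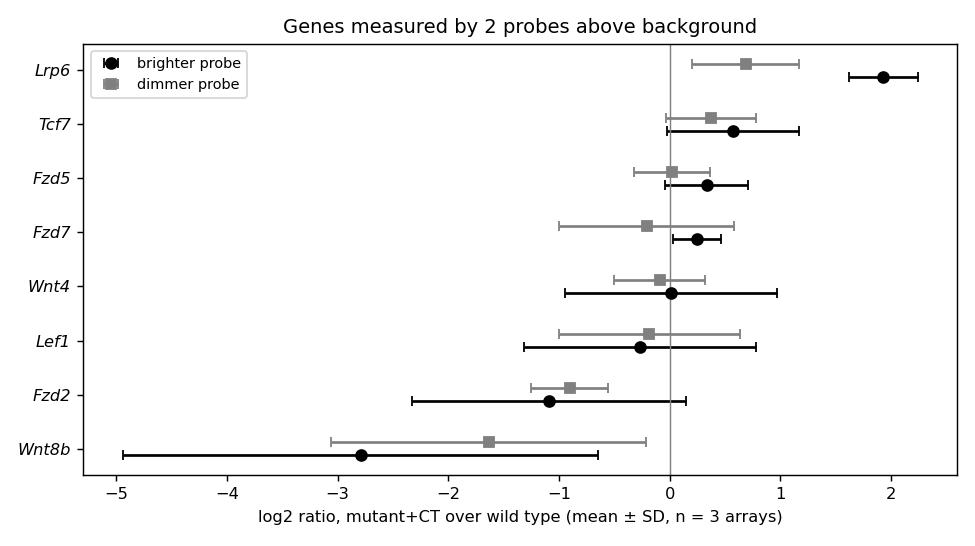
Log2 ratio of mutant+CT over wild type (mean ± SD over 3 arrays, horizontal axis) for the brighter probe (black circles) and dimmer probe (grey squares) of the 8 Wnt pathway genes with 2 tested probes. The pairs share their sign in 6 of 8 genes, and those of Lrp6 lie at 1.93 and 0.69. Both probes of Wnt8b and the dimmer probes of Fzd2 and Lef1 passed the filter through wild type alone.

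Fzd3, a receptor best known for axon guidance and planar cell polarity, was lower on every array by nearly the same factor. It had 369, 493 and 827 in mutant+CT, against 777, 1120.2 and 1747 in wild type. The ranges of the groups overlapped between arrays, but within each array mutant+CT was lower, with ratios of -1.07, -1.18 and -1.08. The mean was -1.11 ± 0.06 (SD, n = 3; limma adjusted p = 0.120).

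Fzd8, a receptor of the anterior neural ectoderm, had 469.5, 141 and 199 in mutant+CT, against 881, 236 and 1117 in wild type. It was lower on every array, most on replicate 3, at -1.38 ± 0.97 (SD, n = 3; limma adjusted p = 0.212). Fzd9, expressed in neural precursors, had ratios of -0.95, -0.20 and -0.83, and Fzd10 of -0.38, -0.01 and -0.78. Like Wnt8b, both had their smallest difference on replicate 2.

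Fzd1 and Fzd2 were lower on replicates 2 and 3 and higher on replicate 1. Fzd1 had 3162, 134 and 365 in mutant+CT, against 1437, 578 and 3186 in wild type. Its ratios were 1.14, -2.10 and -3.13, with a mean of -1.36 ± 2.23 (SD, n = 3; limma adjusted p = 0.506). Without replicate 1 the ratio of Fzd1 was -2.62 and passed limma (adjusted p = 0.0473), as the 1 gene of the set that did. Replicate 1 is the array where the sign of Fzd1 was opposite. In that setting limma called 85 genes higher and 62 lower over all genes tested. Fzd2 had 4371, 1083 and 1271 in mutant+CT, against 3693, 2663 and 5857 in wild type. Its ratios were 0.24, -1.30 and -2.20, while its dimmer probe gave -0.50, -1.06 and -1.15, lower on every array. That probe passed the filter through wild type alone, with 1 of 3 arrays well above background in mutant+CT, so its direction is not independent of the filter.

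The remaining receptors differed by less than the spread between arrays or close to it. Fzd7, a Frizzled expressed in embryonic stem cells, had 7518, 7399.7 and 5270.3 in mutant+CT, against 5454, 7253 and 4463 in wild type. That is higher on every array but small, at 0.24 ± 0.22 (SD, n = 3; limma adjusted p = 0.682), and its dimmer probe gave -0.21 ± 0.79. Fzd4, a receptor of vascular development, had 0.29 ± 0.72, Fzd5, of the eye and yolk sac, 0.34 ± 0.38, and Fzd6, of hair follicle polarity, -0.18 ± 0.56. Over the 12 receptors 2 were higher and 4 lower on every array, or 16.7% and 33.3%, beside 20.3% and 17.4% of all genes tested. Their median was -0.29.

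**Figure D3:**
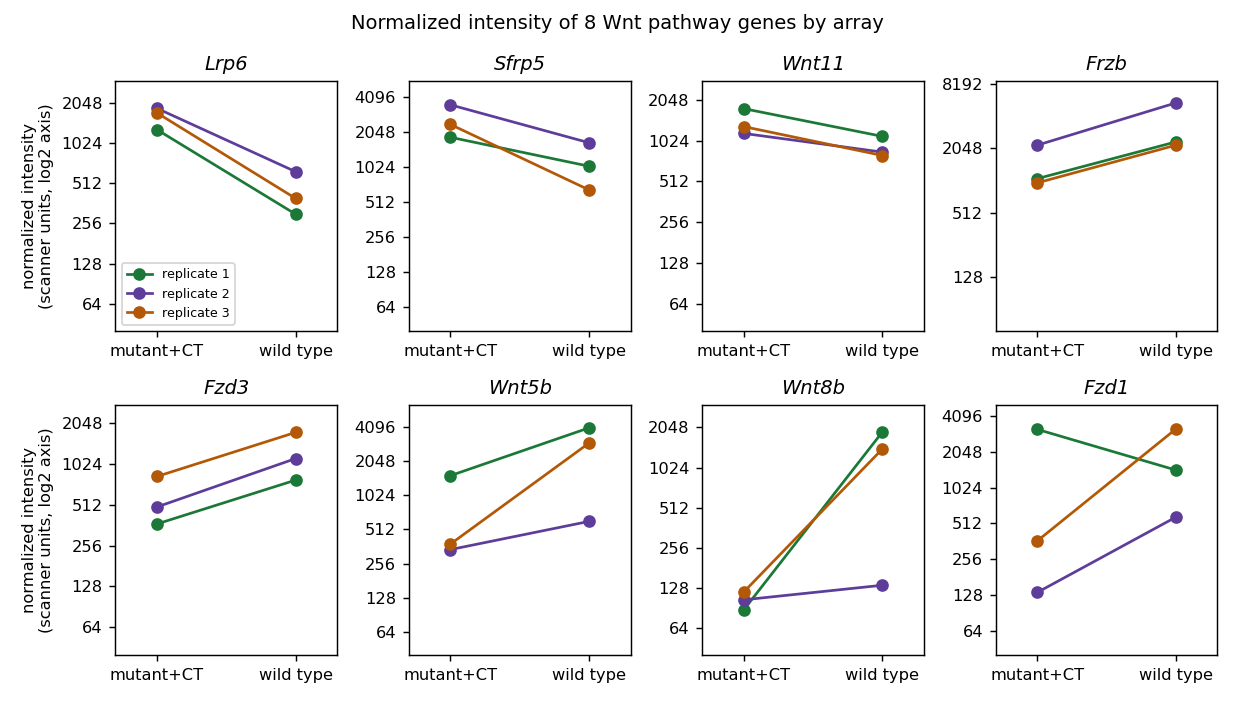
Normalized intensity (scanner units, log2 axis) in mutant+CT (left) and wild type (right) on each array for 8 Wnt pathway genes; each line joins the 2 RNAs of 1 array. Lines of Lrp6, Sfrp5 and Wnt11 run down on all 3 arrays and those of Frzb and Fzd3 run up with even slopes, whereas the Wnt8b line is nearly flat on replicate 2 and the Fzd1 line runs down on replicate 1 alone.

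Of 7 secreted antagonists 4 were tested. Frzb, also called Sfrp3, binds Wnts through a domain shared with the Frizzleds and is known from cartilage. It had 1066, 2189.7 and 973 in mutant+CT, against 2349.9, 5437 and 2189 in wild type. The highest mutant+CT value just reached the lowest wild-type value, but mutant+CT was lower within each array, with the ratios -1.14, -1.31 and -1.17 and a mean of -1.21 ± 0.09, or 2.31-fold lower (SD, n = 3; limma adjusted p = 0.107). Frzb and Fzd3 were the 2 genes of the set at least 2-fold lower on every array.

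Sfrp5, expressed in anterior visceral endoderm and foregut, was higher on every array. It had 1845, 3503 and 2377 in mutant+CT, against 1042, 1657 and 653 in wild type. The groups did not overlap, and the ratio was 1.26 ± 0.54, or 2.39-fold (SD, n = 3; limma adjusted p = 0.149). The 5 visceral endoderm markers Afp, Apoa1, Trf, Hnf4a and Ttr were higher on every array too, with median ratios of 2.47, 1.36 and 1.05. Ttr, however, hardly differed on replicate 3, at 0.02. Their summed intensity was 52774 to 183423 in mutant+CT and 18457 to 67392 in wild type, with 5 of 5 well above background on all arrays in both groups. The Sfrp5 ratio was largest on replicate 3, at 1.86, and smallest on replicate 1, at 0.82, whereas the marker median was largest on replicate 1. The part of visceral endoderm in the Sfrp5 ratio was not tested.

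Sfrp2, an antagonist of neural progenitors and mesenchyme, followed the arrays of Wnt8b. It had 1374, 848 and 1396 in mutant+CT, against 5594, 712 and 11486 in wild type. Wild type was far higher on replicates 1 and 3 and slightly lower on replicate 2, and the mean ratio was -1.60 ± 1.69 (SD, n = 3; limma adjusted p = 0.321). Sfrp1 had ratios of -0.14, -0.49 and -0.48, lower on every array by a small amount (-0.37 ± 0.20; limma adjusted p = 0.498).

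The 3 Dickkopf genes were not tested. Dkk1 and Dkk3 were bright, but each had 1 spot marked as an outlier. Dkk1, which blocks Lrp6 and is itself a target of the pathway, had 3692 and 912 in mutant+CT, against 2115 and 1446 in wild type on replicates 1 and 2. Dkk3, a divergent member, had 3302 and 1132 in mutant+CT, against 1119 and 1292 in wild type on replicates 1 and 3. Both were thus higher in mutant+CT on replicate 1 and lower on the other array. Dkk2 had 1017, 73.9 and 81.0 in mutant+CT, against 101, 72.3 and 131 in wild type. It was high in mutant+CT on replicate 1 alone, at a ratio of 3.33, and was well above background on 1 array in mutant+CT and 2 in wild type.

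Of the targets and transcription factors, Lef1 and Axin2 differed in sign between the arrays. Lef1, a TCF/LEF factor and target, had 983, 191 and 323 in mutant+CT, against 511, 333 and 621 in wild type. Axin2, a scaffold of the destruction complex whose induction is the usual readout of β-catenin signalling, had 218, 87.0 and 189.9 in mutant+CT, against 147, 219 and 295 in wild type. Both were higher on replicate 1 and lower on replicates 2 and 3, with ratios of 0.94, -0.80 and -0.94 for Lef1 and 0.56, -1.33 and -0.63 for Axin2. Their means were -0.27 ± 1.05 and -0.47 ± 0.96 (SD, n = 3; limma adjusted p = 0.843 and 0.656). The dimmer Lef1 probe gave 0.58, -0.08 and -1.05, and passed the filter through wild type alone (2 of 3 arrays well above background in mutant+CT). The dimmer Axin2 probe, which was not tested, gave -0.23, -0.09 and -0.50, and so was not higher on replicate 1. It was well above background on 0 arrays in mutant+CT and on 2 in wild type. Tcf7, also a TCF/LEF factor, had 3257, 3298 and 5027 in mutant+CT, against 2546, 3052 and 2112 in wild type. It was higher on every array, mostly on replicate 3, at 0.57 ± 0.60 (limma adjusted p = 0.440).

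Cardiomyocyte markers, like Fzd1, Lef1 and Axin2, were by their median higher on replicate 1 and lower on replicates 2 and 3, and mesenchyme markers were higher on replicate 1 and lower on replicate 2. The median ratios of the 5 cardiomyocyte markers (Myl7, Actc1, Tnnt2, Nkx2-5 and Hand2) were 3.79, -1.42 and -1.71, and those of the 5 mesenchyme markers (Col3a1, Col1a1, Col1a2, Pdgfra and Twist1) 3.30, -1.86 and 0.09. Tnnt2 was higher on replicate 2 as well, at 1.18, and Pdgfra was lower on every array, at -0.45, -1.45 and -1.29. All members of both lists were well above background on all arrays in both groups. The summed intensity of the cardiomyocyte markers was 1593 to 52997 in mutant+CT and 3756 to 4524 in wild type, and that of the mesenchyme markers 5479.9 to 216200.3 in mutant+CT and 15923 to 27305 in wild type. The part of these cells in the ratios of the Wnt genes was not tested. The 3 endothelium markers (Cdh5, Pecam1 and Kdr) had the same signs as the cardiomyocyte markers by their median, at 1.24, -1.46 and -1.55. Pecam1 was the exception, higher on every array. The 4 primitive streak markers (T, Mixl1, Eomes and Gsc) had median ratios of 2.18, -0.20 and 0.30. Of these, T had the signs of the cardiomyocyte median, at 2.22, -0.86 and -1.69. Mixl1 and Eomes were higher on every array, and Gsc was lower on replicate 2 alone. Among other lists, the 6 naive pluripotency markers had median ratios of 1.23, 2.03 and 3.07, the 4 neuron markers -2.35, -0.72 and -3.66, and the 4 primitive and parietal endoderm markers -2.46, -1.56 and -1.50. Of the trophoblast markers, Tpbpa was not well above background on any array in either group.

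**Figure D4:**
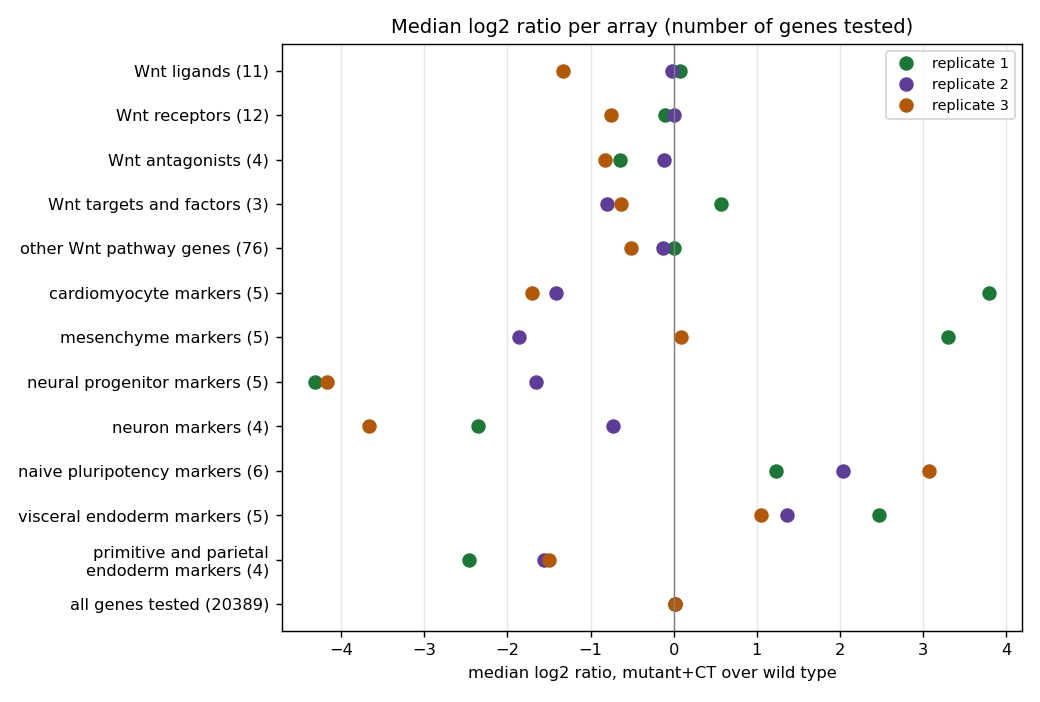
Median log2 ratio of mutant+CT over wild type on each array (points, replicates 1 to 3) for the Wnt roles, the other Wnt pathway genes, 7 lists of cell type markers and all genes tested, with the number of genes tested in parentheses. The median of the 3 Wnt targets and factors lies at 0.56 on replicate 1 and at -0.80 and -0.63 on replicates 2 and 3, although Tcf7 was higher on every array. The cardiomyocyte markers lie on the same sides of 0 on each array, as do the endothelium markers, which are not drawn (1.24, -1.46 and -1.55).

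The medians of the roles varied widely between the arrays. The median was -0.29 for ligands, -0.29 for receptors, -0.79 for antagonists and -0.27 for targets and factors, over 11, 12, 4 and 3 tested genes. By array the ligand median was 0.07, -0.02 and -1.34, that of receptors -0.11, 0.01 and -0.75, and that of antagonists -0.64, -0.12 and -0.83. By these medians the 4 tested antagonists lay below the receptors on every array, and no test of roles against each other was made. The order holds for the medians only, since Sfrp5, 1 of the 4, lay above the receptor median on every array, at 0.82, 1.08 and 1.86. Nor does it cover the untested Dkk1, Dkk2 and Dkk3, which had 0.80, 3.33 and 1.56 on replicate 1, above the receptor median there. On replicate 2 Dkk1 and Dkk2 had -0.66 and 0.03, and on replicate 3 Dkk2 and Dkk3 had -0.69 and -0.19. The medians rest on single arrays and on the filter. Without replicates 1, 2 and 3 in turn, the median of targets and factors was -0.87, -0.0001 and 0.07, that of receptors -0.28, -0.53 and -0.06, and that of ligands -0.20, -0.40 and -0.53. With no filter on dim probes the ligand median was -0.10 and the antagonist median -0.37. Among all 30 genes, 7 had the sign of replicate 1 opposed to both others, 4 that of replicate 2 and 5 that of replicate 3, which is 23.3%, 13.3% and 16.7%, beside 16.9%, 33.4% and 11.9% of all genes tested.

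The rest of the pathway was read from a list of 86 other genes, of which 76 were tested. In limma over all genes 0 had an adjusted p under 0.05, as had 0% of all genes tested. At an unadjusted p under 0.05 there were 3 higher and 12 lower, or 3.95% and 15.8%, beside 9.04% and 6.7% of all genes tested. On every array 6 were higher and 19 lower, or 7.89% and 25.0%, beside 20.3% and 17.4% of all genes tested. The median was -0.17, beside -0.003 for all genes tested. The lowest ratios were those of Sp8 and Rspo2, the 2 genes of the list at least 2-fold lower on every array, or 2.63%, beside 0.991% of all genes tested. Sp8, a zinc finger factor of the forebrain and limb ectoderm, had 439, 107 and 99.9 in mutant+CT, against 8639, 697 and 4807 in wild type. Its ratio was -4.20 ± 1.45 (SD, n = 3; limma adjusted p = 0.0844), while a dimmer probe gave -0.17. Rspo2, an R-spondin that strengthens Wnt signals by shielding the receptors from breakdown, had 199, 83.0 and 189.5 in mutant+CT, against 5196, 361 and 3134 in wild type. Its ratio was -3.62 ± 1.34 (SD, n = 3; limma adjusted p = 0.0901). Both had their smallest difference on replicate 2, as did the median of the neural progenitor markers.

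The other lower genes by the smallest p were Vangl2 and Celsr2, which set planar cell polarity, Sostdc1, a secreted antagonist, and Bcl9, a cofactor of β-catenin. Their ratios were -1.22 ± 0.48 for Vangl2, -1.95 ± 1.23 for Celsr2, -2.02 ± 1.15 for Sostdc1 and -1.09 ± 0.62 for Bcl9. Second probes were nearer to 0 for Vangl2 (-0.06 and -0.21), Celsr2 (-0.16) and Bcl9 (-0.32), and that of Sostdc1 gave -1.54. The brighter Sostdc1 probe passed the filter through wild type alone, and in mutant+CT was well above background on 2 of 3 arrays. The place of Sostdc1 among the lower genes, and in their count above, is thus not independent of the filter.

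The higher genes by the smallest p began with Gpc3, a cell surface glypican that binds Wnts. Gpc3 had 41647, 28500.01 and 23396 in mutant+CT, against 6404, 15895 and 6846 in wild type. The groups did not overlap, and the ratio was 1.77 ± 0.93 (SD, n = 3; limma adjusted p = 0.144). Cdx1, a posterior homeobox gene and direct target, was also higher on every array, at 0.83 ± 0.43 (limma adjusted p = 0.233). It was not typical of the 17 tested genes listed as other targets, whose median was -0.83. Of these 17, 2 were higher and 5 lower on every array, or 11.8% and 29.4%, beside 20.3% and 17.4% of all genes tested. Gsk3b, the kinase of the destruction complex, had 1.33 ± 1.04 at its brightest probe, but its other probes gave -1.54 and 0.46, so its direction depends on the probe. Sfrp4, a further antagonist, had 0.75 ± 1.16, Ptk7, a polarity co-receptor, 0.48 ± 0.77, and Nkd2, a feedback inhibitor, 0.62 ± 1.15, each with a different sign on 1 array.

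The promoters of the members were searched for the core of the TCF/LEF motif, because Dkk1, Axin2 and Lef1 are known targets of the pathway. The letters searched were CTTTGAA or CTTTGAT or CTTTGTA or CTTTGTT, on both strands, in the 250 bases before each RefSeq start site. Of the 40 genes 28 had a promoter in the table of GRCm38.p6, with 35 entries in all. A match was found in 5 of 35 entries, or 14.3%, beside 14.8% of all 32851 promoters, so the motif was about as common here as elsewhere. The matches were in entries of Fzd7, Lef1, Wnt5b, Wnt11 and Dkk1. Of these genes, Fzd7 and Wnt11 were higher and Wnt5b lower on every array, and Lef1 differed in sign. The other entries of Lef1, Wnt5b and Wnt11 had no match. The sequences of Wnt11, the ligand that was higher on every array, and of Dkk1, with 2 matches, are given 5' to 3' on the gene's strand, with the matches in capitals. The windows are chr7:98834862-98835111 on the plus strand for Wnt11 and chr19:30549497-30549746 on the minus strand for Dkk1.
Wnt11: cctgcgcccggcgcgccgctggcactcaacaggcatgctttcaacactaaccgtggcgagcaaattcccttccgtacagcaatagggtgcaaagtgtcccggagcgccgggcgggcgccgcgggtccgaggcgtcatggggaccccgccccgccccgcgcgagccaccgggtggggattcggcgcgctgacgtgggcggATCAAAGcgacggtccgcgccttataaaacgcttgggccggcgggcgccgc
Dkk1: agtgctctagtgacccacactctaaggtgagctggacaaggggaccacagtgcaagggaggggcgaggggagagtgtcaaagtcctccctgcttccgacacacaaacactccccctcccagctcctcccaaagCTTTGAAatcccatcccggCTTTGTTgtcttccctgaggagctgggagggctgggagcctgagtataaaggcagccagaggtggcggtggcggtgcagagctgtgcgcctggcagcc
In Wnt11 the match lies on the other strand and ends 44 bases before the start site. A match is a run of letters and not a measured binding site, and genes without a match in this window, such as Axin2, may hold one elsewhere.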

How the data were processed

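The members, lists and tests were chosen with earlier results of these data known, and the promoter motif after the values were seen. The authors deposited 1 scanner file per array with spot intensity values (mean brightness and local background in green and red, Agilent Feature Extraction 10.7.3.1, mm9, per the file headers). The files also hold Agilent's processed intensity and a log10 ratio of red over green, deposited per the file headers. The authors' deposited value table holds log2 ratios made with limma per the submitters' processing notes, in unstated steps. Its columns have medians of -0.02, 0.01 and -0.02 and, with the log10 ratio, correlations of -0.85, 0.84 and -0.86, which gives mutant+CT over wild type. All 3 arrays were on 1 slide and in 1 scan.

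The analysis used limma 3.58.1 (R 4.3.3, statmod 1.5.0). The normexp method with an offset of 50 corrected the background and loess within each array the dyes, with control spots at weight 0 and outlier spots missing. Intensities by group were also scaled between arrays (Aquantile). Probes well above background on all 3 arrays in 1 group and with no missing value were kept (26317 of 39429), and the brightest per gene was used. Names came from RefSeq for 30708 of 43020 spots and otherwise from the files. The log2 ratio was tested against 0 with limma's moderated test and Benjamini-Hochberg adjustment. Named genes are all members and, of the other pathway genes, the 6 with the smallest p in each direction. On simulated data at 20389 genes, 0, 11, 30 and 37 of 50 genes were recovered for log2 changes of 1, 2, 3 and 4, with 1 false call.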

Additional observations from a re-analysis of the deposited data

How the results depend on the processing

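The sign of the mean ratio of the tested Wnt genes changed for at most 3 of 30 in any setting. The count of all genes called by limma was 0 with the main settings, 290 on Agilent's processed signals, 12 with the filter in both channels, 176 with a trended and robust prior, 472 in a separate-channel fit, 298 at an adjusted p under 0.1, and 0 to 147 without 1 replicate. The count of Wnt genes called was 0, against 1 (Lrp6) in the separate-channel fit and at an adjusted p under 0.1, and 0 to 1 without 1 replicate. The count at least 2-fold lower on every array was 2, but 0 with median centring and 0 with arrays scaled to the same spread, and 2 to 7 without 1 replicate (7 without replicate 2, 5 without replicate 1). The count at least 2-fold higher was 1, and 1 to 2 without 1 replicate. Without 1 replicate the 2-fold rule covers 2 arrays, so both counts can only stay or rise. The share of all genes under that rule was not taken. The antagonist median was -0.37 with no filter on dim probes, where Dkk2 entered. The causes were not tested. The target median changed sign without replicate 3, at 0.07. Each ratio is within the pair of RNAs of 1 array, so the test of the ratios is itself the paired analysis, and no further replicate block was fitted. With a dye term, adjusted p was 0.159 for Lrp6, 0.201 for Frzb and 0.207 for Fzd3. Signal over background limits Wnt2, Wnt2b, Wnt3a, Wnt7a, Wnt10a, Wnt10b, Wnt16 and Dkk2.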
